A study of Mus musculus with 31 samples.

Results

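The transcripts described here are 10 mRNAs long known as axonally localised or locally translated: Kpnb1, Ranbp1, Stat3, Creb1, Gap43, Rhoa, Bcl2l2, Lmnb2, Impa1 and Vim. They were chosen by gene symbol, with earlier results of these data already known. Each symbol matched 1 row in both deposited count tables, so that 10 of 55536 gene identifiers were followed. All 10 passed the filter on low counts in each of the 9 comparisons made.

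The libraries hold mouse RNA recovered by translating ribosome affinity purification (TRAP), in which ribosomes carrying a GFP-tagged L10a protein are pulled down and the RNA bound to them is sequenced. The test genotype was Nav1.8-Cre;L10a-eGFP-fl/fl, here called Cre, in which Cre made under the sensory neuron gene Nav1.8 (Scn10a) switches on the tagged protein. The control genotype was L10a-eGFP-fl/fl (neg ctrl), which carries the same floxed L10a-eGFP allele and no Cre, so that a control library shows what the pulldown recovers without a tagged ribosome. Central axon libraries came from lumbar dorsal root with spinal cord, peripheral axon libraries from sciatic nerve, and soma libraries from lumbar dorsal root ganglia (DRG). In batch 1, as the labels number it, central axons and somas each had 4 Cre libraries and 4 controls. In batch 2 there were 4 Cre libraries and 3 controls from peripheral axons, and 4 of each from somas. Ages and treatments are not given in the sources used here. Axon type and batch cannot be told apart except through the somas that each batch contains. The labels call the libraries biological replicates and do not say which came from the same animals.

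Neurons send some mRNAs far from the nucleus and translate them in the axon, where the products serve growth, injury signalling and survival. In sensory neurons, importin beta 1 (Kpnb1) made in the axon joins importin alpha and dynein to carry signals back to the nucleus, Ranbp1 acts on the Ran switch that controls this assembly, and the transcription factors Stat3 and Creb1 are among the cargoes. Gap43 and Rhoa act in the growth cone, Bcl2l2 (Bcl-w), Lmnb2 and Impa1 have been tied to axon maintenance, and Vim encodes vimentin, an intermediate filament protein that fibroblasts, Schwann cells and other non-neuronal cells of nerve also make. The 3′ untranslated region (3′ UTR) of such mRNAs often carries the sequence that sends them into the axon.

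One sequence element with this background is the AU-rich element, bound by proteins such as HuD (Elavl4), whose core in DNA letters is ATTTA. For each gene the GENCODE M21 protein-coding transcript (GRCm38) with the longest coding sequence was used, and among equals that with the longest 3′ UTR. In these the core was found on the mRNA strand in 9 of the 10 transcripts and not in the 312 bases of Vim. It occurred in 61.6% of the 20693 mouse genes with a 3′ UTR. Creb1 held 11 copies in 3879 bases, Impa1 6 in 3230, Kpnb1 5 in 2967, Bcl2l2 4 in 2701, Rhoa 3 in 1113, Stat3 2 in 1895, and Gap43, Ranbp1 and Lmnb2 1 each. Length bears on these counts: among 3′ UTRs of similar length the share with the core was 97.9% for Creb1 and 57.4% for Gap43. The longer nonamer ATTTATTTA was found in none of the 10 and in 5.48% of all genes. Windows of 30 bases around a core are shown for the 6 members with a core whose CPM in axon and soma Cre libraries did not overlap in at least 1 of the axons (values below), 5′ to 3′ on the mRNA strand, with each core in capitals.
Kpnb1, 3′ UTR bases 238 to 267, chr11:97162414-97162443, minus strand: gagaaacaatggATTTActtacttattaaa
Stat3, 3′ UTR bases 1503 to 1532, chr11:100887173-100887202, minus strand: aactgaaagggtATTTAggaaggcaaggct
Creb1, 3′ UTR bases 917 to 946, chr1:64598295-64598324, plus strand: tcATTTAcctagtccactgctgcATTTAca
Gap43, 3′ UTR bases 140 to 169, chr16:42248860-42248889, minus strand: tgtgtggcaaacATTTAaagaaaaaaaaaa
Bcl2l2, 3′ UTR bases 2590 to 2619, chr14:54888123-54888152, plus strand: gtatttttATTTAataATTTAtaaatgcca
Lmnb2, 3′ UTR bases 857 to 886, chr10:80901973-80902002, minus strand: tttttaaagaatATTTAtttttttacatcg

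The counts do not resolve 3′ UTR isoforms, so the presence of these windows in the sequenced RNA was not tested. A match describes the letters only.

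Levels below are counts per 1000000 counts (CPM), the count divided by the library total, and fold changes are on the log2 scale of edgeR's quasi-likelihood fit after scaling by TMM. A gene is called when its Benjamini-Hochberg adjusted p over all genes of the comparison is under 0.05. Library totals ran from 3.60 to 19.6 M counts (M, mega), so that 3 counts, taken as the floor, are worth 0.153 to 0.833 CPM. The floor covers counting error only. The least complex libraries were the soma controls of batch 1, with 4934 to 7889 genes at 10 or more counts against 12502 to 14015 in the Cre somas beside them. Control 3 of that group stood apart from every other library in its comparison, with a TMM factor of 0.0547 where the other 7 lay between 1.30 and 1.78. The pair of those controls that carry the same column name are called a and b. Scn10a was above the floor in every soma control, at up to 625 CPM, in peripheral axon controls 1 and 2, at 127 and 38.1 CPM, and in central axon controls 1 and 4, at 2.10 and 29.9 CPM, so the controls were not free of sensory neuron RNA. Scn10a in Cre libraries was at 45.1 to 421 CPM in central axons, above all controls there. It was at 42.1 to 304 CPM in peripheral axons, 312 to 505 CPM in batch 1 somas and 313 to 432 CPM in batch 2 somas. In these 3 compartments Cre and control libraries overlapped. Rpl10a, chosen with Scn10a as a check of the pulldown, overlapped between Cre and control libraries in every compartment. Its Cre and control medians were 47.7 and 53.8 CPM in central axons and 198 and 144 CPM in peripheral axons. In batch 1 somas they were 40.6 and 0.898 CPM, and in batch 2 somas 129 and 169 CPM. In bulk libraries such as these, fewer cells of a type and less RNA per cell cannot be told apart.

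All 10 transcripts were present in every Cre library, axon and soma alike, between 6.34 CPM (Lmnb2, peripheral axon replicate 3) and 4248 CPM (Gap43, soma batch 1 replicate 3). They were also present in most controls. The count was 0 in 7 of the 150 control values, all in batch 1. Bcl2l2, Lmnb2 and Impa1 were each at 0 in central axon control 3 and in 1 soma control, and Creb1 in 1 soma control. Per kilobase of exon, Gap43 was the most abundant of the 10 by mean in 7 of the 8 groups, at 1541 ± 671 CPM per kb (SD, n = 4) in central axon Cre and 534 ± 269.8 in peripheral axon Cre. In the peripheral axon controls Vim led, at 468 ± 206 CPM per kb against 374 ± 384 for Gap43 (n = 3). Creb1 was at the other end, at 2.25 ± 0.808 CPM per kb in central axon Cre and 4.89 ± 2.92 in peripheral axon Cre libraries (n = 4 each).

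**Figure D1:**
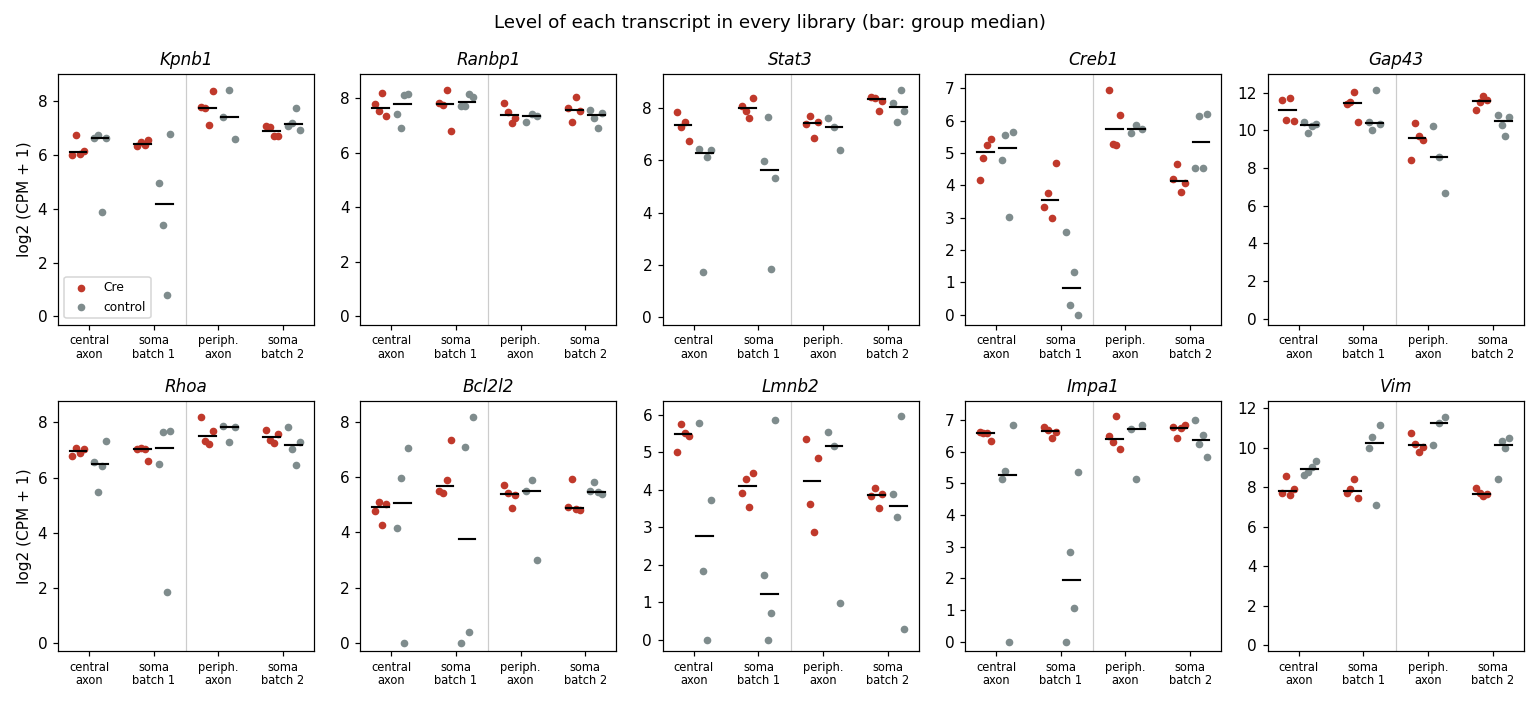
Level of each of the 10 transcripts in every library, as log2 (CPM + 1) on the vertical axis, for the 4 compartments on the horizontal axis (red, Cre; grey, control; black bars, group medians; the vertical line parts batch 1 from batch 2). Red and grey points overlap in most compartments, and in most panels the lowest grey points lie in batch 1. In batch 1 somas the grey medians of Kpnb1, Stat3, Creb1, Gap43, Lmnb2 and Impa1 lie below the red. Vim is highest in peripheral axon and lies higher in grey than in red points in all compartments by the median.

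Against their Cre-negative controls, none of the 10 transcripts was called by edgeR in any compartment. The background was low in 3 of the 4 comparisons: edgeR called 0.0141% of 14189 genes in central axons, 0% of 13970 in peripheral axons, 4.42% of 11667 in the somas of batch 1 and 0% of 15280 in those of batch 2. At an unadjusted p under 0.05, 2, 0, 1 and 3 members passed, in that order, where 4.82%, 3.68%, 15% and 16.4% of all genes did. DESeq2 called 216, 27, 1902 and 1160 genes in the same order, among them Vim in both sets of somas and Gap43 in those of batch 2. The members' median log2 fold change was 0.24 in central axons, where that of all genes was 0.11. In peripheral axons it was 0.17 and 0.07, in batch 1 somas -0.46 and -0.45, and in batch 2 somas 0.16 and 0.06.

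Groups without overlap in CPM were seen for Stat3 and Gap43 (Cre higher) and Vim (Cre lower) in central axons, where 6.82% of genes were higher and 1.29% lower without overlap. In peripheral axons no member was without overlap, and 6.44% of genes were. In batch 1 somas Creb1 and Impa1 were higher without overlap, as were 28% of genes. In batch 2 somas Gap43 was higher and Vim lower, beside 4.29% and 7.58% of genes.

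**Figure D2:**
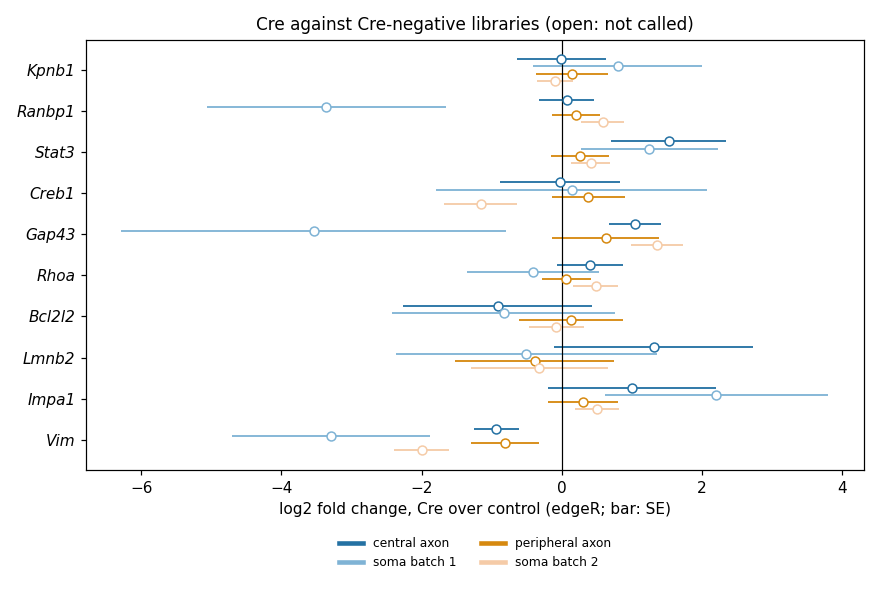
Log2 fold change of Cre over control libraries (horizontal axis, edgeR; bars, SE) for each transcript in the 4 compartments, all open because edgeR called none. Vim lies left of 0 in all 4 compartments, Stat3 and Impa1 lie right of it, and the batch 1 soma values carry the widest bars.

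Between axon and soma libraries of Cre mice, more of the 10 differed. In central axons against batch 1 somas, 1 of the 10 was called, Bcl2l2, which was lower. In that comparison 13.7% of 14480 genes were called, with 8.63% called higher and 5.11% lower. In peripheral axons against batch 2 somas, 4 of the 10 were called, where 31.2% of 15467 genes were. Vim and Creb1 were higher in the axon libraries, as were 18.7% of genes, and Gap43 and Stat3 lower, as were 12.5%. Without overlap in CPM, Lmnb2 was higher and Bcl2l2 lower in central axon, beside 21% and 4.17% of genes. In peripheral axon Kpnb1, Creb1 and Vim were higher and Stat3 and Gap43 lower without overlap, beside 20.7% and 16% of genes. Their medians were -0.49 (central) and -0.05 (peripheral) on the log2 scale, against 0.05 and -0.03 over all genes. Both counts lie close to what those backgrounds give for 10 genes, and nothing particular to the 10 is read from them.

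**Figure D3:**
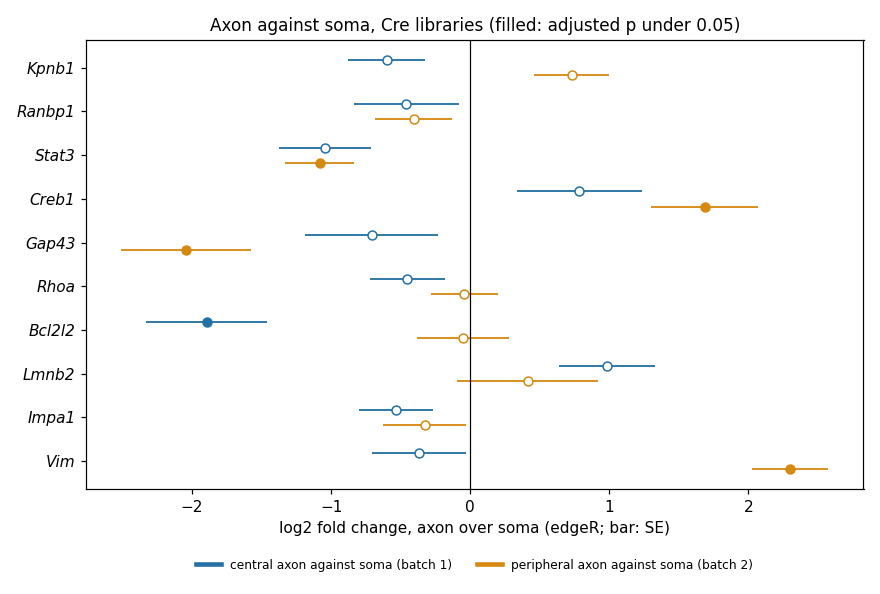
Log2 fold change of axon over soma Cre libraries (horizontal axis, edgeR; bars, SE), central axon in blue and peripheral axon in orange, filled where the adjusted p is under 0.05. Stat3 sits near -1 in both axons, Vim and Gap43 part in the peripheral axon at 2.30 and -2.04, and Bcl2l2 is low in the central axon alone among the filled points.

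Kpnb1 (importin beta 1, ENSMUSG00000001440, chromosome 11, 97159714 to 97187881, GRCm38) is the transport receptor that carries cargo through the nuclear pore. In peripheral axons it was at 216, 213, 135 and 332 CPM in the Cre libraries and 169, 337 and 96.0 CPM in the controls. Batch 2 somas stood at 132, 131, 102 and 102 CPM (Cre) and 132, 145, 209 and 119 CPM (control). Every peripheral axon Cre library was above every Cre soma library of its batch, while Cre and control overlapped in both tissues. The axon-over-soma log2 fold change was 0.73 (SE 0.27, edgeR adjusted p 0.0587), and it was called when peripheral axon Cre replicate 3 was left out (0.86, edgeR adjusted p 0.0257) and with library size alone (0.95, edgeR adjusted p 0.0271).

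In central axons Kpnb1 was at 62.8, 106, 64.0 and 70.1 CPM (Cre) and 96.4, 106, 13.6 and 97.7 CPM (control). Batch 1 somas stood at 79.1, 86.8, 80.2 and 92.2 CPM (Cre) and 29.8, 9.62, 0.755 and 108 CPM (control). Here 3 of the 4 axon Cre libraries were below all Cre somas, and the log2 fold change was -0.60 (SE 0.28, edgeR adjusted p 0.172). The central and peripheral differences from soma were then tested against each other, a comparison in which 2 of the 10 were called, both lower in central axon. It called 13.1% of 16725 genes, and 5.88% as lower. Kpnb1 was one of them, at -1.16 (SE 0.37, edgeR adjusted p 0.0446). That call was lost in 13 of 20 alternatives, 11 of which each left out 1 library, with values from -1.38 to -0.94 and adjusted p from 0.00631 to 0.161. The antisense gene Gm11583 lies opposite 7.07% of the exon length of Kpnb1 and collected 9.28% as many reads. The use of strand in counting is not given in the sources used here, so these reads cannot be assigned between the pair.

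Ranbp1 (Ran binding protein 1, ENSMUSG00000005732, chromosome 16, 18239784 to 18248732) was the steadiest of the 10. Its values ran from 165 to 297 CPM in central axon Cre and from 135 to 226 CPM in peripheral axon Cre libraries. In the somas they were 110.1 to 316 CPM (batch 1 Cre) and 141 to 267 CPM (batch 2 Cre). The controls, between 119 and 288 CPM, covered nearly the same span, and no 2 of its 8 groups next to each other in the order of medians were free of overlap. Its log2 fold changes from soma were -0.46 (SE 0.38) in central and -0.41 (SE 0.28) in peripheral axon, with edgeR adjusted p 0.453 and 0.285. The 95% interval of the central difference, -1.38 to 0.46, leaves a change of 2-fold or more within it. In 16.9% of its exon length Ranbp1 shares sequence with the overlapping gene Gm49776, which was at 0 counts in all 31 libraries.

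Stat3 (ENSMUSG00000004040, chromosome 11, 100885098 to 100939540) is the transcription factor of gp130 cytokine signalling that axons return to the nucleus after injury. In central axons it was at 229, 156, 175 and 107 CPM (Cre) and 85.6, 2.30, 69.9 and 83.0 CPM (control), so that each Cre library was above each control. The log2 fold change was 1.52 (SE 0.82), but the edgeR adjusted p was 1.00 and the 95% interval ran from -0.47 to 3.52. In peripheral axons it was at 170.0, 208, 114 and 176 CPM (Cre) and 196, 155 and 83.9 CPM (control), which overlapped.

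By median, Cre somas held more Stat3 than the Cre axons of their batch, as did controls in batch 2 but not in batch 1. In batch 1 somas it was at 273, 239, 197 and 336 CPM (Cre) and 61.3, 204, 2.59 and 38.8 CPM (control). In batch 2 somas it was at 348, 336, 239 and 315 CPM (Cre) and 292, 179, 417 and 236 CPM (control). Peripheral axon Cre libraries lay below all Cre somas of their batch, and Stat3 was called lower there by 1.08 on the log2 scale (0.472-fold, SE 0.25, edgeR adjusted p 0.00714), a call kept in all 13 alternatives run. In central axons the difference was of like size, -1.04 (SE 0.33), but the groups overlapped and the edgeR adjusted p was 0.0521. Without central axon Cre replicate 1, the highest of its group, the central value was -1.41 (edgeR adjusted p 0.0123). It was also called by DESeq2 (-1.02, adjusted p 0.0126) and with RLE factors (-1.02, edgeR adjusted p 0.0482). The difference between the 2 axons was 0.20 (95% interval -0.69 to 1.08, edgeR adjusted p 0.803).

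Creb1 (CREB, ENSMUSG00000025958, chromosome 1, 64532645 to 64604548) encodes the cyclic AMP response factor whose mRNA is translated in axons in response to nerve growth factor. In peripheral axons it was at 122, 37.5, 37.1 and 71.6 CPM (Cre) and 48.4, 57.2 and 52.2 CPM (control). The somas of batch 2 held 17.3, 24.4, 12.7 and 15.8 CPM (Cre) and 22.4, 69.6, 22.2 and 72.6 CPM (control). The axon Cre libraries were all above the Cre somas, with no overlap, and the axon controls fell within the range of the axon Cre libraries. Creb1 was called higher in peripheral axon than soma by 1.69 on the log2 scale (3.22-fold, SE 0.38, edgeR adjusted p 0.00672). When the controls of both tissues entered the same fit the value was 1.55 and the call was lost (edgeR adjusted p 0.0768). Relative to the controls the difference was 1.44 (SE 0.77, edgeR adjusted p 0.570).

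In central axons Creb1 was at 17.1, 27.4, 37.2 and 42.2 CPM (Cre) and 26.3, 46.1, 7.04 and 48.6 CPM (control). The somas of batch 1 held 9.01, 12.6, 6.99 and 24.7 CPM (Cre) and 4.91, 0.235, 1.51 and 0 CPM (control), the 0 standing for at most 0.376 CPM. Central axon and soma Cre libraries overlapped, and the log2 fold change of 0.78 (SE 0.45) had an edgeR adjusted p of 0.267. In batch 1 the Cre somas were above all 4 soma controls in CPM, while the fitted value was 0.14 (SE 1.93). Without control 3, whose TMM factor stands apart, it was 2.93.

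Gap43 (ENSMUSG00000047261, chromosome 16, 42248442 to 42340651) encodes the growth cone protein GAP-43, a target of HuD. In central axons it was at 3101, 1500.5, 3353 and 1433 CPM (Cre) and 1408, 915, 1185 and 1282 CPM (control). Its batch 2 soma values were 2152, 2907, 3681 and 3120.4 CPM (Cre) and 1797, 1259, 846 and 1669 CPM (control). Cre was above control without overlap in both, with the lowest central axon Cre library, 1433 CPM, just above the highest control, 1408 CPM. The log2 fold changes were 1.04 (SE 0.37, edgeR adjusted p 0.722) in central axons and 1.36 (SE 0.37, edgeR adjusted p 0.106) in batch 2 somas. The latter was called by DESeq2 (1.32, adjusted p 0.00617), with no filter on low counts (1.43, edgeR adjusted p 0.0419) and without soma batch 2 control replicate 5 (1.55, edgeR adjusted p 0.0318).

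In peripheral axons Gap43 was at 342, 1339, 846 and 724 CPM (Cre) and 1225, 382 and 101 CPM (control). All 4 axon Cre libraries were below all batch 2 Cre somas, and Gap43 was called lower by 2.04 on the log2 scale (0.243-fold, SE 0.46, edgeR adjusted p 0.00663), a call kept in all 13 alternatives run. Its batch 1 soma values were 2682, 2951, 4248 and 1413 CPM (Cre) and 1375, 1031, 4504 and 1302 CPM (control). Control 3 was as high as the highest Cre soma there, and the fitted Cre-over-control value turned from -3.54 with TMM to 0.45 with library size alone. Central axon and soma Cre libraries overlapped, at -0.71 (SE 0.48, edgeR adjusted p 0.349). The central and peripheral differences from soma lay 1.51 apart (SE 0.65, 95% interval 0.09 to 2.93), which was not called (edgeR adjusted p 0.131). Summed levels of 9 nociceptor markers are given beside Gap43. In Cre libraries they were 1041 to 4379 CPM in peripheral axon and 1688 to 8668 CPM in central axon. The Cre somas of both batches held 7201 to 11576 CPM. Median sums in controls were 825 CPM (central axon), 1264.5 CPM (peripheral axon), 6089 CPM (batch 1 soma) and 6485 CPM (batch 2 soma). Gap43 medians in these control groups, in the same order, were 1233, 382, 1339 and 1464 CPM. The part of these markers in the Gap43 values was not tested.

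Rhoa (ENSMUSG00000007815, chromosome 9, 108306129 to 108337934) encodes the GTPase that drives growth cone collapse. Its Cre values spanned 109.7 to 135 CPM in central axons and 97.0 to 134 CPM in batch 1 somas. In batch 2 they spanned 148 to 296 CPM in peripheral axons and 151 to 209 CPM in somas. Axon and soma overlapped in both batches, at -0.45 (SE 0.27, edgeR adjusted p 0.285) for central and -0.04 (SE 0.24, edgeR adjusted p 0.905) for peripheral axon. The peripheral interval, -0.64 to 0.55, bounds a difference in either direction at less than 2-fold. Controls ranged from 2.59 CPM (soma batch 1 control 3) to 230.4 CPM. The antisense gene Gm37401 collected 13.5% as many reads as Rhoa, with 324 bases of identical sequence, so reads in the shared stretch are uncertain.

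Bcl2l2 (ENSMUSG00000089682, chromosome 14, 54883377 to 54888234) encodes Bcl-w, a protein against apoptosis. In central axons it was at 26.8, 33.8, 18.2 and 31.5 CPM (Cre) and 17.1, 61.8, 0 and 133 CPM (control), the 0 standing for at most 0.370 CPM. Batch 1 somas stood at 44.0, 42.0, 58.5 and 164 CPM (Cre) and 0, 137, 0.324 and 295 CPM (control). Each central axon Cre library was below each Cre soma, whereas the controls spread over the whole span of both. Bcl2l2 was called lower in central axon than soma by 1.90 on the log2 scale (0.269-fold, SE 0.44, edgeR adjusted p 0.0139). When the controls of both tissues entered the fit too, the value was -1.57 and the call was lost (edgeR adjusted p 1.00). The fits run otherwise kept the call, with values from -2.12 to -1.31, the smallest of these without soma replicate 4, which stands at 164 CPM.

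In peripheral axons Bcl2l2 was at 51.3, 42.6, 28.6 and 39.9 CPM (Cre) and 44.2, 58.9 and 7.07 CPM (control). Batch 2 somas stood at 29.7, 60.5, 27.5 and 27.5 CPM (Cre) and 44.1, 56.5, 43.6 and 41.2 CPM (control). These overlapped in every pairing, and the axon-over-soma value was -0.05 (SE 0.33, 95% interval -0.86 to 0.76, edgeR adjusted p 0.921). The central difference minus the peripheral one was -1.67 (SE 0.57, edgeR adjusted p 0.0581). This was called by DESeq2 (-1.78, adjusted p 0.0202), with RLE factors (-1.78, edgeR adjusted p 0.0434) and in 5 edgeR fits without soma batch 1 Cre replicate 1, 2 or 3, peripheral axon Cre replicate 3 or soma batch 2 Cre replicate 6 (-2.02 to -1.81, adjusted p 0.0316 to 0.0483). Gm20521 shares 13.3% of the exon length of Bcl2l2 on the same strand and was at 0 counts in all libraries. Whether reads in the shared stretch were counted for Bcl2l2 or dropped is not given in the sources used here.

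Lmnb2 (lamin B2, ENSMUSG00000062075, chromosome 10, 80901203 to 80918245) belongs to the nuclear lamina and has been found to act on mitochondria when made in axons. In central axons it was at 30.8, 53.2, 44.8 and 42.0 CPM (Cre) and 54.2, 2.56, 0 and 12.2 CPM (control). In batch 1 somas it was at 14.1, 18.4, 10.6 and 20.9 CPM (Cre) and 2.33, 0, 0.647 and 57.0 CPM (control). All central axon Cre libraries were above all Cre somas, as were 21% of genes, and the value of 0.98 (1.98-fold, SE 0.34) was not called (edgeR adjusted p 0.0737). It was called with library size alone (1.42, edgeR adjusted p 0.0209), by DESeq2 (1.02, adjusted p 0.0250) and without soma batch 1 Cre replicate 4 (1.09, edgeR adjusted p just under 0.05). In peripheral axons the 4 Cre libraries spread from 6.34 to 39.9 CPM around the 10.5 to 15.6 CPM of their somas, at 0.41 (SE 0.50, edgeR adjusted p 0.558).

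Impa1 (inositol monophosphatase 1, ENSMUSG00000027531, chromosome 3, 10311956 to 10331439) recycles inositol. Its Cre values were among the most even, from 80.2 to 97.1 CPM in central axons, 86.3 to 109 CPM in batch 1 somas, 66.6 to 138 CPM in peripheral axons and 84.7 to 113 CPM in batch 2 somas. In batch 1 the controls spread more widely, from 0 to 114 CPM in central axons and 0 to 40.0 CPM in somas, and in batch 2 they ran from 34.4 to 115 CPM in peripheral axons and 56.7 to 127 CPM in somas. The batch 1 Cre somas lay above all of their controls, but the value of 2.20 (SE 1.59) had an edgeR adjusted p of 0.491. Axon and soma overlapped in both batches, at -0.53 (SE 0.27, edgeR adjusted p 0.205) and -0.33 (SE 0.30, edgeR adjusted p 0.427).

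Vim (vimentin, ENSMUSG00000026728, chromosome 2, 13573927 to 13582826) showed the widest contrast of the 10 between axon and soma Cre libraries. In peripheral axons it was at 1732, 1172, 887 and 1049 CPM (Cre) and 1142, 2467 and 3054 CPM (control). In batch 2 somas it was at 251, 207, 190.2 and 199 CPM (Cre) and 346, 1303, 1004 and 1432 CPM (control). Both genotypes of peripheral axon stood above the Cre somas, and the Cre somas below every soma control. Vim was called higher in peripheral axon than soma by 2.30 on the log2 scale (4.92-fold, SE 0.27, edgeR adjusted p 0.000144), in all 13 alternatives run, with values from 2.05 to 2.52.

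In central axons Vim was at 209, 379.7, 195 and 241 CPM (Cre) and 395, 442, 527 and 642 CPM (control). The somas of batch 1 held 208, 237, 336 and 175 CPM (Cre) and 1002, 1508, 136 and 2259 CPM (control). Central axon and soma Cre libraries overlapped, at -0.37 (SE 0.34, edgeR adjusted p 0.504). The central difference from soma minus the peripheral one was -2.49 (SE 0.42, edgeR adjusted p 0.00118), which was called in all 20 alternatives run, with values from -2.72 to -2.32. In the order of its group medians, peripheral axon controls, batch 1 soma controls, batch 2 soma controls and peripheral axon Cre came first and overlapped from each to the next. Central axon controls followed without overlap with peripheral axon Cre, and the other 3 Cre groups were lowest and overlapped one another.

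Against controls, Vim was lower in Cre libraries of each compartment: -0.93 (SE 0.32, edgeR adjusted p 0.629) in central axons and -0.81 (SE 0.48, edgeR adjusted p 1.00) in peripheral axons. In the somas it was -3.29 (SE 1.41, edgeR adjusted p 0.301) in batch 1 and -2.0 (SE 0.39, edgeR adjusted p 0.0583) in batch 2. Without soma batch 1 control 3 the batch 1 value was -2.88 and called (edgeR adjusted p 0.00703). In batch 2, leaving out control 5 or control 7 gave -2.27 and -2.01, both called (edgeR adjusted p 0.00389 and 0.0349). DESeq2 called Vim lower in both, at -3.33 (adjusted p 0.00468) in batch 1 and -2.06 (adjusted p 0.000109) in batch 2. Library size alone did so too, at -2.39 and -2.27 (edgeR adjusted p 0.0354 and 0.0339), as did the batch 2 fit with no filter on low counts, at -1.92 (edgeR adjusted p 0.0148). Relative to control, the axon-minus-soma difference was 1.50 (SE 0.85, edgeR adjusted p 0.325) for central and 1.09 (SE 0.60, edgeR adjusted p 0.578) for peripheral axon. Those 2 comparisons called none of the 10, beside 0% of 15355 and 0.00636% of 15717 genes. At an unadjusted p under 0.05 they held 0 members each, beside 20.4% and 9.74% of genes, and DESeq2 called 582 and 343 genes.

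In peripheral axon against soma, where Vim was called higher, markers of several non-neuronal cell types were higher too. The summed level of 6 fibroblast markers (Col1a1, Col1a2, Col3a1, Dcn, Lum and Pdgfra) was 3816 to 6686 CPM in peripheral axon Cre and 173 to 364 CPM in batch 2 Cre somas, and 6 of the 6 were called higher in the axon. Of 10 Schwann cell markers, 9 were called higher, with sums of 10834 to 29526 CPM and 678 to 836 CPM. All 5 endothelial markers were called higher as well (53.2 to 153 CPM against 4.46 to 12.9 CPM), as were 3 of 6 of microglia and macrophages (65.9 to 136 CPM against 19.5 to 36.7 CPM). Of 5 skeletal muscle markers 4 were tested and called higher, with sums of 609 to 2271 CPM in peripheral axon Cre and 13.2 to 70.2 CPM in the somas. Controls held fibroblast sums of 5224 to 19577 CPM (peripheral axon), 1253 to 3546 CPM (central axon), 902 to 6166 CPM (batch 1 soma) and 907 to 3656 CPM (batch 2 soma). Central axon Cre libraries were at 283 to 1870 CPM, and 1 of the 6 was called higher there than in soma. No fibroblast marker was at 0 in any group. Schwann cell sums in the controls were 8904 to 16998 CPM (peripheral axon) and 1246 to 3046 CPM (batch 2 soma). Median fibroblast sums in peripheral axon Cre and batch 2 soma controls were 4841 and 2292 CPM. Those of Schwann cell markers were 14170 and 1888 CPM. Vim there had medians of 1110 and 1153 CPM and ranges of 887 to 1732 CPM and 346 to 1432 CPM. The part of these cells in the Vim values was not tested.

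**Figure D4:**
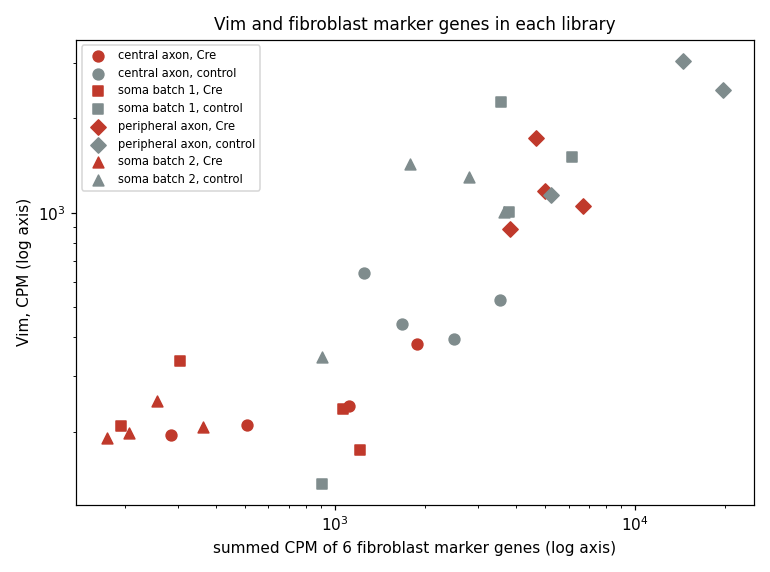
Vim (CPM, vertical log axis) against the summed CPM of 6 fibroblast markers (horizontal log axis) in each of the 31 libraries (red, Cre; grey, control; shapes, compartments). The batch 2 Cre somas sit at the lower left near 200 CPM of Vim, and the peripheral axon libraries of both genotypes at the upper right.

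The same marker shift stood beside the other members called in peripheral axon, Creb1 (higher), Gap43 and Stat3 (lower). In central axon and batch 1 soma Cre libraries, median sums were 52.6 and 6.53 CPM (endothelial) and 3187 and 1118 CPM (Schwann cell). For microglia and macrophages they were 26.8 and 11.9 CPM, for fibroblasts 812 and 684 CPM and for skeletal muscle 24.7 and 24.4 CPM. Central axon libraries include spinal cord, and markers of spinal cord cells were higher there than in soma as well. Astrocyte markers summed to 296 to 1347 CPM in Cre and 1329 to 2347 CPM in control libraries, and 5 of 5 spinal inhibitory and motor neuron markers were called higher than in soma, with sums of 84.2 to 291 CPM (Cre) and 134 to 588 CPM (control). In the Cre somas of batch 1, Slc32a1, Gad2, Slc6a5 and Chat were at 0. Of the nociceptor markers, 5 of 9 were called lower in central axon than in soma and 7 of 9 in peripheral axon. The part of any of these in the members' values was not tested.

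The genes that work with each member were followed in 7 lists of 109 genes in all, described by counts. None of them was called by edgeR in Cre against control in any compartment or relative to control. Against soma, the counts that follow stand beside 8.63% of all genes called higher and 5.11% lower in central axon, and 18.7% higher and 12.5% lower in peripheral axon. Of 17 partners in nuclear import and retrograde transport, 3 were called lower in central axon than soma: Dync1i2 (a dynein intermediate chain, -2.04), Mapk3 (ERK1, -1.41) and Rangap1 (-0.95). In peripheral axon 3 were higher and 4 lower. The exportin Xpo1 was at 1.32, while the dynein and dynactin chains Dync1i1 (-1.91), Dctn1 (-1.63) and Dync1li1 (-0.91) were lower. The list's median was -0.21 in central and -0.26 in peripheral axon.

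Of 18 tested partners of Stat3 and Creb1, none was called in peripheral axon. In central axon Lifr, a receptor of the gp130 family, was lower (-1.58) and Rps6ka1, a CREB kinase, higher (1.84). Of the growth cone genes listed with Gap43, 2 of 11 were lower in central axon, Prkca (-1.74) and Stmn3 (-1.61). In peripheral axon 6 of 12 were lower, among them Marcksl1 (-1.0) and Elavl4, the gene of HuD (-1.61), and 2 were higher, Igf2bp1 and Marcks (1.68). Igf2bp1 was at 13.0 ± 6.07 CPM (SD, n = 4) in peripheral axon and at 0.259 ± 0.214 CPM in soma, where it lies near the floor.

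In the RhoA pathway none of 13 genes was called in central axon. In peripheral axon 3 were higher and 3 lower: the RhoA-dependent kinases Rock1 (2.90) and Rock2 (2.51) were above soma, while cofilin (Cfl1, -1.46) was among the lower. Rhoa itself, at -0.04, was not called. Of 14 genes of the Bcl2 family and nuclear envelope, Banf1 (-1.41), Emd (-1.33) and Bad (-1.08) were lower in central axon. In peripheral axon 6 were higher and 2 lower, led by Lbr (3.97), Tmpo (2.93), Bak1 (3.06) and Bcl2l11 (3.32).

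Among intermediate filament and inositol genes, Gfap was at 507 ± 280.1 CPM in central axon Cre and 1.32 ± 2.65 CPM in soma Cre libraries. Gfap is also among the 6 astrocyte markers, and central axon libraries include spinal cord. Those markers summed to 296 to 1347 CPM in central axon Cre and 1329 to 2347 CPM in the controls there. The part of astrocytes in the Gfap value was not tested. Peripherin (Prph, -1.88) was lower in central axon than soma. In peripheral axon nestin (Nes, 5.57) and desmin (Des, 4.71) were higher, with Vim, whereas Nefl (-1.69) and Isyna1, which makes inositol (-2.85), were lower. Of 20 other mRNAs reported in axons, 7 were called lower in central axon and none higher, among them Atf4 (-1.71), Sod1 (-2.08) and Csnk2a1 (-1.48). In peripheral axon 5 were higher and 7 lower, among them Pard3 (3.02), Ndel1 (-1.18), Nrn1 (-1.60) and Tubb3 (-1.99). Between the 2 axons, each relative to soma, the largest partner differences on the side of peripheral axon were those of Bak1 (-4.70), Nes (-4.12) and Bcl2l11 (-3.33).

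Across the 31 libraries the 10 transcripts did not move as one. Over the 45 pairs of members, Pearson's r of log2 CPM had a median of 0.24, ran from -0.79 (Gap43 with Vim) to 0.80 (Bcl2l2 with Impa1), and was above 0 in 28 pairs. These points share tissue, batch and depth, so the values are a description. Among 10732 genes with a mean of at least 10 CPM, the genes most like each member were, with r over the 31 libraries, Gmfb (0.91) and Smad4 (0.90) for Kpnb1, Bag1 (0.72) and Limd2 (0.69) for Ranbp1, and Mbnl2 (0.91) and Asap1 (0.90) for Stat3. For Creb1 they were Slc25a36 (0.93) and Cdk12 (0.92), for Gap43 Acot7 (0.94) and Bex3 (0.93), and for Rhoa Mapre1 (0.94) and Hspa12a (0.93). For Bcl2l2 they were Arhgap12 (0.93) and Tmem219 (0.92), for Lmnb2 Nqo1 (0.87) and Socs6 (0.87), for Impa1 Narf (0.96) and Cerk (0.95), and for Vim the extracellular matrix genes Sparc (0.89) and Col5a2 (0.88).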

How the data were processed

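For each batch the authors deposited a table of unnormalised read counts by gene, 2 in all, covering 31 libraries and 55536 gene identifiers. Per the labels' protocols, RNA was recovered by TRAP with a nano-scale kit and made into libraries with SMART-Seq v4, and yields were under 100 pg (axon) or 1 ng (soma). STAR 2.7.2b and mm10 are named in the submitters' processing notes. The counting program, its annotation, and its handling of strand, duplicates and reads with several matches are not given in the sources used here. All identifiers matched GENCODE M21 (GRCm38), which gave symbols, coordinates and 3′ UTRs.

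Each comparison was fitted on its own groups with edgeR 4.0.16 in R 4.3.3: filterByExpr at its defaults (10 and 15 counts), TMM, glmQLFit and glmQLFTest, with Benjamini-Hochberg adjustment over all genes tested. The SE was taken as the log2 fold change over the root of the quasi-likelihood F. Differences of differences used 4 groups. Alternatives were RLE factors, library size alone, no filter, DESeq2 1.42.0, the replicate number as a block, all 4 groups of a batch in one fit, and leaving out each library. The code was tested on simulated data. Replicates were not copies: over 45 pairs, chi-square per degree of freedom was at least 22.5. Near-identical copies were sought with BLAST 2.17.0 (at least 200 bases at 95% identity).

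The named genes are the 10 members, Scn10a and Rpl10a, up to 4 called genes per partner list and comparison, and the 2 genes most like each member. Members and lists were chosen with earlier results of these data known. The p-values measure the spread between libraries, since nothing says which share an animal.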

Additional observations from a re-analysis of the deposited data

Results flagged for a closer look

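In groups of 4 libraries, 9 of the 70 sets of member values had a single library far from the other 3 by Dixon's critical value. About 1 in 20 independent sets of normal values would pass it. The sets here share libraries and CPM need not be normal, so no excess over chance is read from the count. Kpnb1 was at 106 CPM in central axon Cre replicate 2, against 62.8 to 70.1 CPM in the others, and at 13.6 CPM in central axon control 3, against 96.4 to 106 CPM. Gap43 was at 4504 CPM in soma batch 1 control 3, against 1031 to 1375 CPM in the other controls. Soma batch 1 Cre replicate 4 was low for Rhoa, at 97.0 CPM against 129.8 to 134 CPM, and high for Bcl2l2, at 164 CPM against 42.0 to 58.5 CPM. Bcl2l2 was also high in soma batch 2 Cre replicate 6, at 60.5 CPM against 27.5 to 29.7 CPM. Soma batch 1 control b was the highest of its group for Lmnb2, at 57.0 CPM against 0 to 2.33 CPM, and for Impa1, at 40.0 CPM against 0 to 6.10 CPM. Impa1 was at 80.2 CPM in central axon Cre replicate 4, against 96.2 to 97.1 CPM, the narrowest group of this kind. These libraries belong to 7 different samples, and 5 of the 9 values lie in batch 1 somas.

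The difference between axon and soma itself differed between central and peripheral axon for 2 members, by edgeR's test of that difference. The central difference minus the peripheral one was -2.49 on the log2 scale for Vim and -1.16 for Kpnb1, the latter lost without any of 11 single libraries. Batch and axon type cannot be told apart beyond the somas of each batch.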

How the results depend on the processing

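The 7 calls of members were recomputed in 106 alternative fits. All 106 kept their direction and 91 kept the call; the 15 that lost it were the 13 for Kpnb1 given above and the fits of all 4 groups of a batch for Bcl2l2 and Creb1, and the cause was not tested. No call was gained under the other sign. Of 1264 alternative values for the 83 uncalled results, 1132 kept direction and side of the threshold, 27 became called and 105 changed sign. These are fits of a few libraries at under 100 pg (axon) or 1 ng (soma) of RNA, so a change of the size of the SE printed is not detectable.

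The numbers of called genes moved by more than 1.5 times in the following fits. With DESeq2 they were 216 in central axon Cre against control, 27 in peripheral axon, 1902 in batch 1 somas and 1160 in batch 2 somas, then 3143 in central axon against soma, 582 and 343 in central and peripheral axon against soma relative to control, and 3290 in central against peripheral axon. With no filter on low counts they were 34, 1700, 162, 320 and 23 in central axon, batch 1 somas, batch 2 somas, and the central and peripheral contrasts relative to control. With library size alone they were 2244 (batch 1 somas) and 257 (batch 2 somas), and with RLE factors 21 (batch 2 somas) and 1 (central contrast relative to control). With all 4 groups of a batch in one fit they were 15 in central and 1404 in peripheral axon against soma. Leaving out 1 library at a time gave 0 to 5, 0 to 0, 0 to 3094 and 0 to 1826 genes in the 4 Cre-against-control comparisons (central axon, peripheral axon, batch 1 and batch 2 somas). It gave 822 to 2717 and 3220 to 6055 in central and peripheral axon against soma, 0 to 1111 and 1 to 66 in these relative to control, and 1394 to 2856 in central against peripheral axon.

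Scaling by library size alone shifted the all-gene median in central axon against soma from 0.05 to 0.50 and the split of calls from 1250 higher and 740 lower to 2146 higher and 293 lower. Against soma it reversed Ranbp1 (0.0085), Rhoa (0.0091) and Vim (0.11) in central axon and Rhoa (0.18) and Bcl2l2 (0.17) in peripheral axon. It also reversed Rhoa in peripheral axon Cre against control (-0.017), Gap43 (0.45) and Lmnb2 (0.049) in batch 1 somas, Stat3 (0.066) and Lmnb2 (0.30) in the peripheral contrast relative to control, and Impa1 in central against peripheral axon (0.055). RLE factors and DESeq2 reversed Stat3 in the central contrast relative to control (0.22 in both), Lmnb2 in the peripheral one (0.0054 and 0.0063) and Ranbp1 in central against peripheral axon (-0.025 in both). With no filter on low counts, Kpnb1 was at 0.015 in central axon Cre against control, Lmnb2 at 0.036 in batch 1 somas, Stat3 at 0.092 in the central contrast relative to control and Impa1 at 0.030 in central against peripheral axon. None of these values was called.

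Leaving out 1 library at a time changed the sign of 32 results, each uncalled. In Cre against control the ranges were -0.36 to 0.14 (Kpnb1), -0.12 to 0.26 (Ranbp1), -0.37 to 0.26 (Creb1) and -1.31 to 0.16 (Bcl2l2) in central axons. In peripheral axons they were -0.22 to 0.90 (Kpnb1), -0.049 to 0.49 (Stat3), -0.029 to 0.56 (Creb1), -0.13 to 0.15 (Rhoa), -0.36 to 0.79 (Bcl2l2), -0.96 to 0.089 (Lmnb2) and -0.035 to 0.51 (Impa1). In batch 1 somas they were -0.25 to 2.93 (Creb1), -3.87 to 1.10 (Gap43), -1.39 to 0.31 (Bcl2l2) and -0.85 to 1.37 (Lmnb2), and in batch 2 somas -0.18 to 0.070 (Kpnb1), -0.44 to 0.050 (Bcl2l2) and -0.74 to 1.03 (Lmnb2). Peripheral axon against soma gave -0.31 to 0.018 (Rhoa), -0.22 to 0.27 (Bcl2l2) and -0.11 to 0.67 (Lmnb2). The central contrast relative to control gave -0.84 to 0.40 (Stat3), -3.10 to 0.34 (Creb1), -0.21 to 5.13 (Gap43) and -1.40 to 0.64 (Bcl2l2). The peripheral one gave -0.21 to 0.96 (Kpnb1), -1.32 to 0.31 (Gap43), -0.36 to 0.81 (Bcl2l2) and -1.45 to 0.32 (Lmnb2). Central against peripheral axon gave -0.22 to 0.29 (Ranbp1), -0.056 to 0.36 (Stat3) and -0.20 to 0.22 (Impa1).

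In none of the 5 comparisons that share replicate numbers was the correlation of deviations over 0.1 in every pair, so the numbers were not taken to pair the libraries. It was highest in central axon against soma, where the 4 pairs ran from -0.0049 to 0.20 (mean 0.12, other pairs -0.038), 2 were over 0.1, and 2 of the 4 central axon libraries correlated best with their own number. Adding the number as a block called 2226 genes in central axon against soma, 1 in central axon Cre against control and 0 in batch 1 somas. These fits used only libraries whose number occurs in both groups. That left 3 pairs in peripheral axon Cre against control and 2 in batch 1 somas, with control 3 among the latter. With the block Stat3 was at -1.11 in central axon against soma (edgeR adjusted p 0.0412). The block reversed Kpnb1 (0.27), Creb1 (0.17) and Bcl2l2 (0.43) in central axon Cre against control, Lmnb2 in peripheral axon (0.55) and batch 2 somas (0.79), and Creb1 (-0.74), Rhoa (0.82), Bcl2l2 (6.26) and Lmnb2 (1.04) in batch 1 somas, none of them called.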
